A study of Homo sapiens with 4 samples.

Results

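The enzymes that remove superoxide and peroxides, together with a pair of genes that set how readily membrane lipids are peroxidised, were followed by RNA sequencing in human cells whose label gives lung squamous cell carcinoma as the line's origin. They were chosen by name: 10 genes, namely the glutathione peroxidases GPX1, GPX2, GPX3, GPX4 and GPX8, the superoxide dismutases SOD1 and SOD2, catalase (CAT), ACSL4 and AIFM2. These names matched 11 of the 58735 gene rows deposited, because SOD2 has a second row. Each of the 4 libraries carries a radiation dose in its name: 0 Gy (gray) for 2 of them, the unirradiated group, and 30 Gy for the other 2. According to the design text the study worked with SK-MES-1 and with SK-MES-1-RR, a radiotherapy-resistant line, and the labels used here do not tie either line to a dose, nor say how the dose was split or when RNA was taken. A difference between the groups may therefore be one of line as well as of dose, and these cannot be told apart. Nothing states that replicates were separate cultures, so a p-value here reflects only how far these libraries spread, which may be technical.

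Superoxide leaking from respiration and from oxidases is turned into hydrogen peroxide by the dismutases, SOD1 in the cytosol and SOD2 in the mitochondrial matrix. Catalase breaks hydrogen peroxide down in peroxisomes, and glutathione peroxidases reduce it, or lipid peroxides, at the expense of glutathione. Ferroptosis is an iron-dependent cell death driven by peroxidised phospholipids. GPX4 restrains it by reducing lipid peroxides within membranes, AIFM2 (also named FSP1) restrains it by keeping ubiquinone reduced, and ACSL4 favours it by loading polyunsaturated fatty acids into phospholipids.

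A feature shared by 4 of the 5 peroxidases, and independent of any expression value, is a TGA codon that is read as selenocysteine at the catalytic site instead of ending translation. The coding sequences around it are shown because they separate GPX8 from the others. They come from the GENCODE v29 transcripts (GRCh38), run 5′ to 3′ on the coding strand with 24 bases on either side, and the capitals mark the annotated selenocysteine codon or, in GPX8, the codon at the same place.
GPX1: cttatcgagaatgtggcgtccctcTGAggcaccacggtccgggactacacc
GPX2: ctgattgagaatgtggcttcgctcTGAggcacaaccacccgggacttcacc
GPX3: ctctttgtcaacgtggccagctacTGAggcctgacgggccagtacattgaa
GPX4: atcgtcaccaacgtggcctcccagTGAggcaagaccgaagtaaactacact
GPX8: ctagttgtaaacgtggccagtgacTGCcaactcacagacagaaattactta
The codon lies in a coding exon in each gene: codon 49 of GPX1 (chr3:49358132-49358134, minus strand), codon 40 of GPX2 (chr14:64942607-64942609, minus strand), codon 73 of GPX3 (chr5:151025469-151025471, plus strand) and codon 73 of GPX4 (chr19:1105403-1105405, plus strand). GPX8 has no annotated selenocysteine codon. Its codon 79, TGC (chr5:55161024-55161026, plus strand), was placed by matching bases, and the placement rests on GPX3 alone. Of the 48 flanking bases 27 matched GPX3, above the 24 reached at best by any other GPX8 codon with any of the 4 genes, while 23 matched GPX4, 22 GPX1 and 20 GPX2. TGC encodes cysteine.

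Depth was similar across libraries. Whole reads recovered from the FPKM values (fragments scaled by gene length and by library size) came to 15920861 to 17261121 per library. Mitochondrially encoded genes took 6.11% and 6.22% of reads at 0 Gy and 6.63% and 7.13% at 30 Gy. Of 6 squamous markers, KRT5, KRT6A and DSG3 had 0 reads in every library, KRT14 had 0 to 4 reads, SOX2 stayed below 1 FPKM and TP63 ranged from 3.19 to 4.14 FPKM, so the markers that define squamous cells were mostly absent. The 4 leukocyte and 3 endothelial markers were all below 1 FPKM. The summed FPKM of 5 fibroblast markers was 62.8 and 63.2 at 0 Gy and 72.4 and 78.6 at 30 Gy, nearly all of it COL1A1. COL1A2 had at most 1 read and DCN had 0, while LUM went from 1 and 5 reads to 43 and 63 and PDGFRB from 81 and 87 to 166 and 171 reads. PDGFRB and COL1A1 did not pass the test described below. LUM (0.895 and 1.32 FPKM at 30 Gy) did not enter it, since it reached 1 FPKM in 1 library and the test asked for 2. The part of these markers and of the mitochondrial share in the differences below was not tested. Values are from bulk RNA, in which fewer cells with a transcript and less RNA per cell cannot be told apart.

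Between the groups GPX3 was higher and CAT was lower at 30 Gy, and the other 7 tested genes did not pass. The test was limma on log2(FPKM + 1) over the 13379 genes that reached 1 FPKM in 2 or more libraries, with a Benjamini-Hochberg adjusted p under 0.05 taken as a call. GPX2 and the second SOD2 row were below that minimum. Across all tested genes 10.8% were called higher and 9.06% lower at 30 Gy, 19.8% in all, and the 2 calls among 9 tested members are 22.2%, close to that background. At an unadjusted p under 0.05 stood 4 of the 9 (CAT, GPX3, AIFM2 and GPX8), where 37.7% of all tested genes did. The median log2 difference, 30 Gy minus 0 Gy, was -0.17 over the 9 tested members and -0.00068 over all tested genes, and it was below 0 in 6 of the 9.

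**Figure D1:**
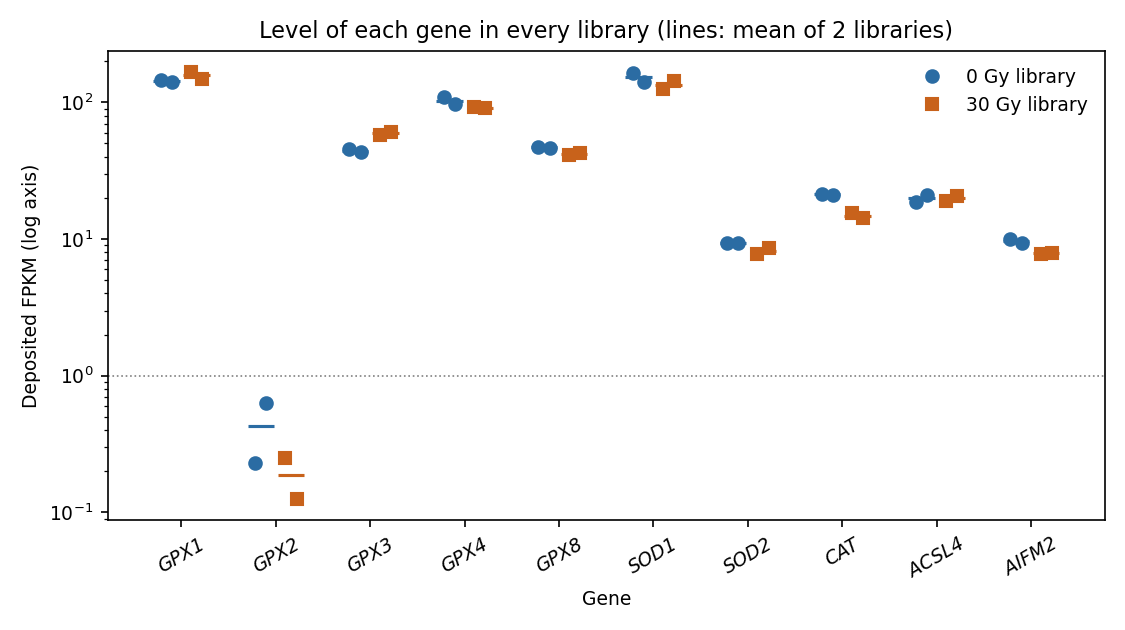
Deposited FPKM of each gene in every library on a log axis, circles for the 0 Gy libraries, squares for the 30 Gy libraries and short lines for the mean of each group (n = 2). SOD1, GPX1 and GPX4 lie near or above 100 FPKM (90.8 to 166), GPX2 lies below the dotted line at 1 FPKM, and the groups of CAT and GPX3 stand apart.

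Ranked by FPKM, which scales each gene by its deposited length, the members spanned from 0.188 to 158 at 30 Gy. SOD1 and GPX1 were the most abundant. At 0 Gy their libraries overlapped, with only 1.14% of tested genes above the mean of SOD1, and at 30 Gy GPX1 was above SOD1 in both libraries. GPX4 followed these in each group. GPX8 was slightly above GPX3 at 0 Gy and below it at 30 Gy, and in both groups the libraries of these neighbours did not overlap. CAT stood above ACSL4 at 0 Gy and below it at 30 Gy. At 0 Gy the lower CAT library (21.1 FPKM) was only just above the higher ACSL4 library (21.0 FPKM). AIFM2 and SOD2 were next to each other with overlapping libraries in both groups, and GPX2 came last. The level of SOD2 is per 16493 bases of deposited gene length, against 1430 bases for GPX1, so its place in this order depends on that length. It may also depend on how reads common to the overlapping SOD2 rows were counted, which is not known.

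GPX1, the most widely expressed peroxidase of cytosol and mitochondria (ENSG00000233276, chr3:49357171-49358600, hg38), measured 146.5 and 140 FPKM in the 0 Gy libraries and 166 and 149 FPKM in the 30 Gy libraries. Every 30 Gy library was above both 0 Gy libraries, but the 2 libraries at 30 Gy differed from each other by more than the higher 0 Gy library differed from the lower 30 Gy one. The log2 difference of 0.14 did not pass (SE 0.08, 95% interval -0.06 to 0.33, adjusted p = 0.256). It was 0.06 without 30 Gy replicate 1 and 0.21 without 30 Gy replicate 2. A processed pseudogene, GPX1P1, held 6 to 23 reads per library against 3398 to 3800 for GPX1.

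GPX3, the peroxidase known as the secreted plasma form (ENSG00000211445, chr5:151020438-151028993), was the member that rose. It measured 45.3 and 43.4 FPKM at 0 Gy and 58.1 and 60.7 FPKM at 30 Gy. The groups were well apart, with each library within 3 FPKM of its replicate. The mean went from 44.3 ± 1.33 to 59.4 ± 1.80 FPKM (SD, n = 2 each), 1.34-fold, a log2 difference of 0.41 (SE 0.06, 95% interval 0.26 to 0.57, limma adjusted p = 0.0149). Without the filter on low values the adjusted p was 0.0555, and no fit that dropped a library kept the call: 0.102 and 0.114 on dropping 0 Gy replicate 1 or 2, and 0.0578 and 0.0680 on dropping 30 Gy replicate 1 or 2. Its size stayed between 0.37 and 0.44 in all 12 alternatives.

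GPX4, the peroxidase that acts on lipid hydroperoxides in membranes (ENSG00000167468, chr19:1103926-1106791), measured 109 and 97.7 FPKM at 0 Gy and 91.7 and 90.8 FPKM at 30 Gy. Both 30 Gy libraries were below both 0 Gy libraries, and the 0 Gy libraries differed more from each other than the lower of them did from the 30 Gy libraries. The log2 difference of -0.17 did not pass (SE 0.07, 95% interval -0.36 to 0.01, adjusted p = 0.154), except under quantile normalization, where it was -0.24 with an adjusted p of 0.0402. Without the first 0 Gy library it was -0.10 (adjusted p = 0.413).

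GPX8, a membrane peroxidase of the endoplasmic reticulum and the cysteine form in the sequences above (ENSG00000164294, chr5:55160118-55167071), measured 47.5 and 46.1 FPKM at 0 Gy and 41.5 and 42.4 FPKM at 30 Gy. The groups did not overlap. Its log2 difference of -0.16 did not pass after adjustment over all genes (SE 0.06, 95% interval -0.30 to -0.01, adjusted p = 0.119).

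GPX2, the peroxidase known from gut and airway epithelium and a textbook NRF2 target (ENSG00000176153, chr14:64939152-64942905), was near the detection limit. The libraries held 6 and 16 reads at 0 Gy (0.230 and 0.628 FPKM) and 6 and 3 reads at 30 Gy (0.251 and 0.126 FPKM), and 3 reads are worth 0.115 to 0.126 FPKM. The groups overlapped, and no difference was detectable at this depth.

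Summed over the 5 peroxidase genes, the FPKM were 348 and 328 at 0 Gy and 358 and 343 at 30 Gy, overlapping between groups. Within that sum GPX3 made up at most 13.2% at 0 Gy against 16.2% and 17.7% at 30 Gy, GPX4 made up 31.2% and 29.8% and then 25.6% and 26.5%, and GPX8 made up 13.7% and 14.0% and then 11.6% and 12.3%. GPX1 made up 42.1% and 42.8% at 0 Gy and then 46.5% and 43.5% at 30 Gy. The total thus differed little while its make-up held more GPX3 and GPX1 and less GPX4 and GPX8 in both 30 Gy libraries. These shares are descriptions of FPKM and carry no test.

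SOD1, the copper and zinc dismutase (ENSG00000142168, chr21:31659622-31668931), measured 165 and 141 FPKM at 0 Gy and 125 and 144 FPKM at 30 Gy. The groups overlapped, and the spread within each group was as wide as the distance between them. The log2 difference was -0.18 (SE 0.11, 95% interval -0.46 to 0.10, adjusted p = 0.296), the widest interval among the members. It was -0.07 without 0 Gy replicate 1, -0.29 without 0 Gy replicate 2, -0.08 without 30 Gy replicate 1 and -0.28 without 30 Gy replicate 2.

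SOD2, the manganese dismutase of mitochondria (ENSG00000112096, chr6:159669057-159745186), measured 9.39 and 9.42 FPKM at 0 Gy and 7.71 and 8.54 FPKM at 30 Gy. Both 30 Gy libraries were lower, and they differed from each other far more than the 0 Gy libraries did. The log2 difference of -0.19 did not pass (SE 0.08, 95% interval -0.39 to 0.01, adjusted p = 0.141), except with voom on the recovered reads (-0.23, adjusted p = 0.0290). Without 30 Gy replicate 1 it was -0.13. The second SOD2 row (ENSG00000285441, chr6:159679119-159762529) overlaps the first on the same strand. It held 0 reads in each 0 Gy library and 2 in each 30 Gy library, under the 3 reads taken as a floor. The sources used here do not say how reads common to both rows were counted. The first row may therefore not hold every SOD2 read, which was not tested. SOD2 shares 298 of its 16493 exon bases with WTAP on the opposite strand. WTAP stood at 15.7 ± 0.524 and 15.6 ± 0.716 FPKM and did not pass, and the sources used here do not say whether counting used strand.

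CAT, catalase (ENSG00000121691, chr11:34438925-34472062), was the member that fell. It measured 21.3 and 21.1 FPKM at 0 Gy and 15.4 and 14.3 FPKM at 30 Gy. The 0 Gy libraries were nearly equal and the groups were far apart. Its mean went from 21.2 ± 0.139 to 14.8 ± 0.804 FPKM (SD, n = 2 each), 1.43-fold lower, with a log2 difference of -0.49 (SE 0.07, 95% interval -0.66 to -0.31, limma adjusted p = 0.0131). Without the filter on low values the adjusted p was 0.0533 and the call was lost, as it was without either 0 Gy library (0.113 and 0.111) and without the second 30 Gy library (0.0576). It held without the first 30 Gy library (0.0447).

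ACSL4, the acyl-CoA synthetase that prefers polyunsaturated fatty acids (ENSG00000068366, chrX:109624244-109733403), measured 18.8 and 21.0 FPKM at 0 Gy and 19.1 and 20.7 FPKM at 30 Gy. The groups overlapped fully, and their means were 19.9 ± 1.56 and 19.9 ± 1.15 FPKM. The log2 difference was 0.0010 with a 95% interval of -0.21 to 0.22 (adjusted p = 0.994), and it ran from -0.075 to 0.077 over the 12 alternatives. The interval bounds a change in either direction but does not show that the levels were equal.

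AIFM2, the ubiquinone reductase (ENSG00000042286, chr10:70098223-70132934), measured 9.93 and 9.39 FPKM at 0 Gy and 7.76 and 7.93 FPKM at 30 Gy. Both 30 Gy libraries were below both 0 Gy libraries, and the mean was 9.66 ± 0.376 against 7.85 ± 0.123 FPKM (SD, n = 2 each). The log2 difference of -0.27 just missed the threshold (SE 0.07, 95% interval -0.45 to -0.09, adjusted p = 0.0542). It passed at a filter of FPKM 5 (adjusted p = 0.0378), with median centring (0.0475) and with voom (0.0201), and over the 12 alternatives its adjusted p ran from 0.0201 to 0.227. H2AFY2, a histone gene on the opposite strand that shares 11 exon bases with AIFM2, fell from 14.2 ± 0.486 to 9.59 ± 0.761 FPKM (adjusted p = 0.0162). Without knowing whether counting used strand, reads over the shared bases cannot be assigned to either gene.

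**Figure D2:**
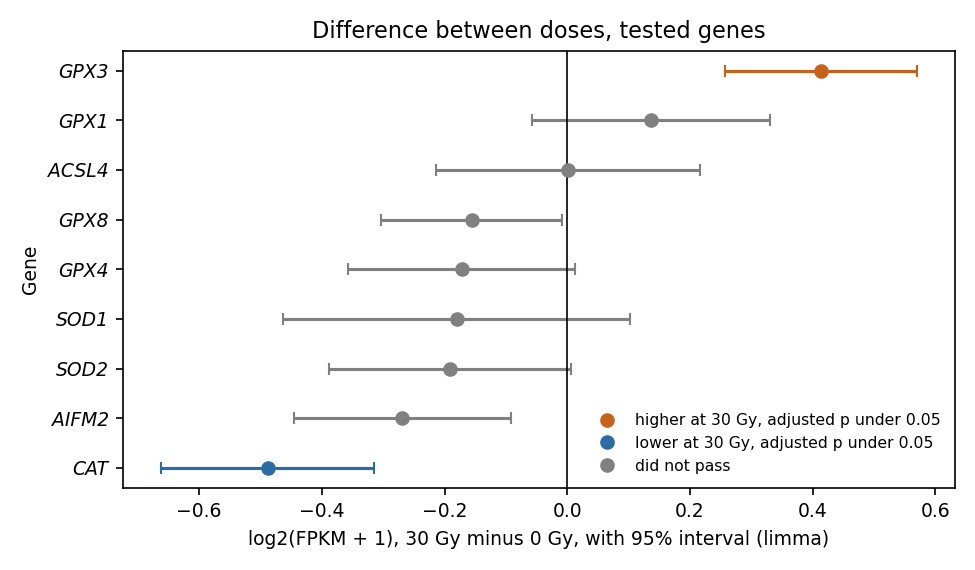
Difference between doses in log2(FPKM + 1), 30 Gy minus 0 Gy, for the 9 tested genes, with the 95% interval from limma (2 libraries per group). The intervals of CAT (-0.66 to -0.31) and GPX3 (0.26 to 0.57) lie farthest from 0, and ACSL4 is centred on 0.

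Groups that do not overlap were common in this comparison, 65.2% of all tested genes. Of the 9 tested members, 5 had both 30 Gy libraries below both 0 Gy libraries (GPX4, GPX8, SOD2, CAT and AIFM2), against 32.3% of all tested genes. For GPX1 and GPX3 both 30 Gy libraries were above, against 32.9% of tested genes. SOD1 and ACSL4 overlapped. With 2 libraries per group an exact two-sided permutation test of a single gene cannot go below 0.333, so none was used.

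The promoters were searched for the core of the antioxidant response element, TGACNNNGC on either strand, the sequence that NRF2 is known to bind. RefSeq windows (GRCh38.p14, 250 bases before to 50 after the start) were found for 9 of the 10 genes, 14 windows in all. GPX2 and AIFM2, with 1 window each, had a match. That makes 2 of the 14 windows, and 13.3% of all 35116 windows hold one, so the members are near that background. The matches are shown to give their letters and place, and what part they have in the levels was not tested. In each match TGACNNNGC reads on the strand opposite to the gene, here the plus strand. The bases shown follow the strand of the gene, with the capitals marking the match and 10 bases on either side.
AIFM2: cagcacgagtGCTGAGTCAcgccccgccc
GPX2: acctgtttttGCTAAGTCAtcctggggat
Counted from the RefSeq start of its own window, the AIFM2 match starts 22 bases upstream (stretch shown chr10:70132829-70132857, minus strand). The GPX2 match starts 122 bases upstream of its RefSeq start (chr14:64942849-64942877, minus strand). Both stretches lie inside the deposited gene bounds, which on this strand begin at chr10:70132934 and chr14:64942905. They are therefore downstream of the deposited start of each gene. AIFM2 was measured at 7.76 to 9.93 FPKM and GPX2 at 0.126 to 0.628 FPKM. No match was found in the windows of GPX3 or CAT, which says only that these letters are not there.

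Neighbouring genes were compared because differences along a chromosome can run together. For each member the 5 nearest tested protein-coding genes on either side were taken. Around CAT, 6 of the 10 neighbours were lower and 2 were higher at 30 Gy, with a median log2 difference of -0.42 over 2.115 Mb (range -1.09 to 1.24), while 15.2% of tested genes on chromosome 11 were lower. Catalase at -0.49 thus lay close to the median of its neighbours. Around GPX3, 3 of 10 were higher and 0 were lower, with a median of 0.11, below the 0.41 of GPX3 itself, and 19.0% of tested genes on chromosome 5 were higher. For the other genes 1 to 3 of 10 neighbours were lower and 0 or 1 higher. What part the neighbourhood has in the fall of CAT was not tested.

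**Figure D3:**
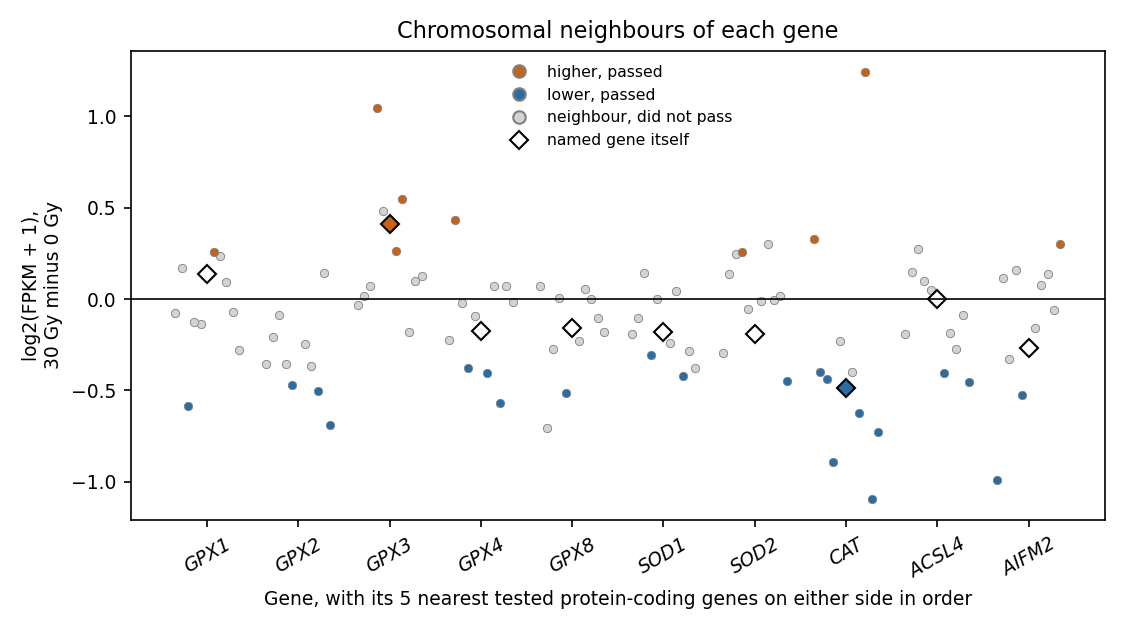
Log2(FPKM + 1) difference, 30 Gy minus 0 Gy, of each gene (diamond, absent for the untested GPX2) and of its 5 nearest tested protein-coding genes on either side in chromosomal order (circles, coloured where they passed). The column of CAT holds 6 lower and 2 higher neighbours, more calls than any other column.

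Of 112 other genes of these pathways, in 6 lists, 75 were tested, 7 rose and 6 fell, 17.3% of those tested against 19.8% of all genes. Among 11 other peroxidases, dismutases and partners, 4 were tested, and PXDN, peroxidasin of the extracellular matrix, rose from 20.1 ± 0.0316 to 28.9 ± 0.587 FPKM (adjusted p = 0.00899). GPX7, the other cysteine peroxidase of the endoplasmic reticulum, measured 13.8 ± 0.934 and 15.7 ± 0.905 FPKM and did not pass. Neither did CCS, the copper chaperone of SOD1 (13.7 ± 1.70 and 13.4 ± 2.21 FPKM). The median log2 difference of the list was 0.07.

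Enzymes and subunits that make superoxide or hydrogen peroxide went both ways. Of 31 genes 14 were tested, 2 rose and 2 fell, with a median of -0.09. The NADPH oxidase catalytic subunits NOX1, CYBB, NOX3, NOX4 and NOX5 all stayed below 1 FPKM. QSOX2, a sulfhydryl oxidase, fell by 0.39 on the log2 scale. MAOB, a mitochondrial amine oxidase, rose by 0.31.

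Peroxisome assembly, on which catalase depends for its place in the cell, showed 1 rise and 1 fall among 16 tested of 17 genes, with a median of 0.03. PEX5, the receptor that imports matrix proteins such as catalase, fell from 12.2 ± 0.150 to 9.82 ± 0.509 FPKM (adjusted p = 0.0494). PEX2, a ubiquitin ligase of the import machinery, rose from 5.84 ± 0.267 to 8.55 ± 1.18 FPKM (adjusted p = 0.0398). Both calls were lost with no filter on low values (0.112 for PEX5, 0.143 for PEX2) and with eBayes without a trend (0.0754 and 0.0580), and that of PEX5 also with a pseudocount of 0.1 (0.0515) and without any 1 library (0.0933 to 0.204). That of PEX2 held only without 30 Gy replicate 1 among the fits that dropped a library. Among 7 tested genes of selenocysteine incorporation, of 9 listed, 0 rose and LRP8, a receptor for selenoprotein P, fell from 13.7 ± 0.770 to 9.94 ± 0.561 FPKM (adjusted p = 0.0251). SEPHS2, which makes the selenium donor, measured 24.7 ± 0.0245 and 28.7 ± 0.0334 FPKM and did not pass (adjusted p = 0.0612).

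On the lipid side of ferroptosis, 13 of 22 genes were tested, 2 rose and 1 fell, with a median of -0.14. MBOAT2, a phospholipid acyltransferase that favours monounsaturated chains, rose from 8.20 ± 0.398 to 11.2 ± 0.562 FPKM (adjusted p = 0.0252). AGPAT3, an acyltransferase of phospholipid synthesis, fell by 0.43 on the log2 scale (adjusted p = 0.0346). ELOVL5, an elongase of polyunsaturated fatty acids, passed narrowly at 0.22 (adjusted p = 0.0498), and its call was lost in 10 of the 12 alternatives, with a pseudocount of 0.1 (0.0504), median centring (0.0592) and quantile normalization (0.0835) among them. LPCAT3, which works after ACSL4 in the same route, measured 3.45 ± 0.290 and 4.52 ± 0.0264 FPKM and did not pass (adjusted p = 0.0690). Of the 6 lipoxygenase genes on the list 0 were tested, with a highest value of 0.922 FPKM.

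Beside AIFM2, 21 of 22 genes that make or reduce ubiquinone, tetrahydrobiopterin and vitamin K, or are relatives of AIFM2, were tested, 1 rose and 1 fell, with a median of -0.11. AIFM1, the mitochondrial relative, fell from 22.7 ± 0.716 to 18.5 ± 0.102 FPKM (adjusted p = 0.0372). DHODH, a mitochondrial enzyme that reduces ubiquinone, measured 2.69 ± 0.270 and 1.86 ± 0.0595 FPKM and did not pass (adjusted p = 0.0770). Of the 13 calls in these lists, 1 passed with no filter on low values (PXDN), 6 with eBayes without a trend, 0 without either 0 Gy library, and 3 and 1 passed on dropping 30 Gy replicate 1 or 2.

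**Figure D4:**
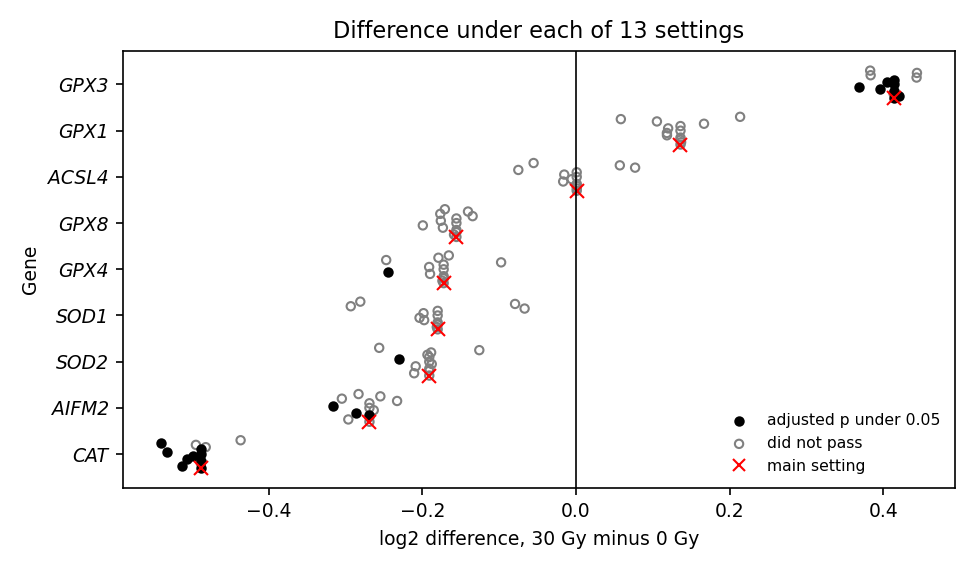
Log2 difference of each tested gene, 30 Gy minus 0 Gy, in the main analysis (red cross) and in 12 alternatives, filled where the adjusted p was under 0.05 and open where it was not. GPX3 and CAT keep their direction in every setting while their calls come and go, and ACSL4 lies on both sides of 0.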

How the data were processed

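The authors deposited FPKM values for 58735 genes in 4 libraries, with gene positions and lengths. Per the submitters' processing notes the genome build is hg38. The aligner, counter and annotation release were not given in the sources read for this work. RNA was taken with Trizol and 0.2 ug per library was used, per the labels' protocols. FPKM times the deposited gene length gave whole reads for 100% of values above 0 (tolerance 0.01), used for depth, floors (3 reads, counting error only) and voom.

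Genes that reached 1 FPKM in 2 or more libraries entered limma 3.58.1 in R 4.3.3 (lmFit and trended eBayes, two-sided) on log2(FPKM + 1), which understates changes of low genes. P-values were Benjamini-Hochberg adjusted over all 13379 tested genes. Folds are ratios of mean FPKM. The members, gene lists, tests and alternatives were chosen with earlier results of these data known. Text names all members and, per list, up to 4 called genes with the largest difference (2 if none was called), except a few that are counted but not reported here by name. GPX7, CCS, the NADPH oxidase subunits, SEPHS2, LPCAT3, the lipoxygenases, DHODH, the pseudogene copies and the overlapping genes were added after values were seen. In simulated data the fit recovered most of the larger changes and missed most of the smallest, and the share of false calls was above the nominal level. Replicates differed by more than sampling noise (mean chi-square per gene 5.66 and 5.26), which does not show that they were separate cultures. In the fits each library was counted once.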

Additional observations from a re-analysis of the deposited data

How the results depend on the processing

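The number of called genes was 2654 (1442 higher, 1212 lower), 604 with no filter on low values, 4227 with voom, and 0 to 898 with 1 library left out. There were 0 without either 0 Gy library (3422 and 3460 genes at an unadjusted p under 0.05), and a lone library is assumed there to vary like the other group. Of the members, 1 was higher, 0 with no filter and 0 in each fit that left out a library. In the other direction 1 member was lower, 0 with no filter, 2 at a filter of FPKM 5 and with median centring (CAT and AIFM2), 2 with quantile normalization (CAT and GPX4), 3 with voom (CAT, AIFM2 and SOD2) and 0 to 1 with a library left out. With no filter 30687 genes are tested, and the cause of these shifts was not tested. No called member changed direction in any of the 12 alternatives.

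The replicate block gave 1926 genes, 1 member higher and 1 lower, again GPX3 and CAT. Under it 6 of the 13 calls in the pathway lists remained, lost among others by LRP8 (adjusted p = 0.0520), PEX2 (0.0661), PEX5 (0.0761), AIFM1 (0.0600), MAOB (0.0593) and ELOVL5 (0.0825), and 6 of the 7 selenoprotein calls, lost by SELENOM (0.0639). The shared numbers are not stated to pair the libraries, and deviations of same-numbered libraries correlated at -0.026 over genes. The planned edgeR and DESeq2 alternatives were not run; voom on the recovered reads was the only fit to counts. With 2 libraries per group, intervals are wide, and differences as large as 0.46 on the log2 scale lie within an interval of a member without a call (SOD1).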

Other observations

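GPX1, GPX2, GPX3 and GPX4 belong to the wider set of genes with an annotated selenocysteine codon, a set examined after values were seen. GENCODE v29 holds 25 such genes, 19 of which were tested, and GPX2 was not among those tested. At 30 Gy 5 were higher and 2 lower, 36.8% of those tested against 19.8% of all genes, and the median log2 difference was 0.04. No test of the set was made. Beside GPX3, the genes that rose were MSRB1, which reduces oxidised methionine, from 19.4 ± 0.668 to 29.1 ± 0.566 FPKM (SD, n = 2 each, limma adjusted p = 0.00799), SELENOW from 11.3 ± 0.616 to 16.4 ± 1.35 FPKM (adjusted p = 0.0221), SELENOM of the endoplasmic reticulum from 5.50 ± 0.179 to 7.38 ± 0.436 FPKM (adjusted p = 0.0345) and SELENOT from 19.3 ± 0.255 to 24.6 ± 0.726 FPKM (adjusted p = 0.0249).

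The genes of the set that fell were TXNRD1, thioredoxin reductase, from 34.6 ± 1.21 to 14.2 ± 0.944 FPKM (adjusted p = 0.00218), and DIO2, a deiodinase that activates thyroid hormone, from 16.3 ± 0.481 to 8.12 ± 0.0378 FPKM (adjusted p = 0.00307). The called genes of this set thus went in both directions within the same libraries. What part their shared decoding step has in this was not tested. Of these 7 calls, 3 passed with no filter on low values, 0 passed without either 0 Gy library and 3 passed without either 30 Gy library in turn.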
